A study of Mus musculus and Homo sapiens with 30 samples.

Results

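The aminoacyl-tRNA synthetases were followed in 2 mouse mammary cell lines given medium conditioned by fat cells. Each synthetase joins 1 amino acid to its transfer RNA, the step that supplies charged tRNA to the ribosome. Most cells carry 1 set for translation in the cytosol and a second, also encoded in the nucleus, for translation inside mitochondria. Several cytosolic synthetase genes are textbook targets of ATF4, the transcription factor made when amino acids run short or proteins misfold. The members were the genes of the mouse count table whose symbol is that of a synthetase. The rule found 37 genes among 56980 gene IDs, of which 52073 carried a symbol. It used no measured value. Of the members, 17 have a symbol ending in 2 and are called mitochondrial here, and the other 20 are called cytosolic. The cytosolic Gars and Kars also serve mitochondria, and Eprs joins both glutamate and proline.

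The libraries used were 18 of the 30 in the series, with 3 per group. E0771, a mouse mammary carcinoma line, and NMuMG, a mouse mammary gland epithelial line that the labels also list as breast cancer, were each given 3 media. These were the line's own growth medium as control, or a mixture of 50% growth medium with 50% secretome of inguinal adipocytes, either lean or obese. Cells had grown for 36 hours and were treated for 16 hours. E0771 grew in DMEM with serum, and the NMuMG medium also held added glucose and insulin in all 3 groups. The labels name neither the mice behind the secretomes nor whether replicates were separate cultures, so p-values measure the spread between these libraries, which may be technical.

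Libraries held 22929035 to 31094119 counts, and all 37 members were tested in every comparison. Marker genes bore on the cell labels. In E0771 the 8 epithelial markers summed to between 229 and 260 CPM (counts scaled to a common library total), nearly all of it Krt8, with Esrp1 and Krt19 at 0 in every library and Epcam and Cdh1 at 0.290 CPM or less. In NMuMG they summed to between 6850 and 8134 CPM. Fat cell markers summed to at most 2.23 CPM, and leptin (Lep) was at 0 in every library. In E0771 the 6 mesenchymal markers summed to between 3954 and 4116 CPM in control medium, 3513 to 3844 with obese secretome and 2284 to 2532 with lean secretome. In NMuMG these markers summed to 2046 to 2141 CPM in control medium, 2186 to 2255 with obese and 2087 to 2125 with lean secretome. Their part in the results below was not tested. In bulk RNA, fewer cells of a type and less RNA per cell cannot be told apart.

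Cytosolic synthetase mRNAs were more abundant than mitochondrial ones. Levels between genes are compared as CPM per kilobase of exon. The length is that of all annotated exons of a gene joined, so the order of genes and the overlap of the sets rest on that length. In control medium the median cytosolic member stood at 50.9 CPM per kb in E0771 and the median mitochondrial member at 8.03, and in NMuMG the medians were 39.3 and 6.30. In E0771 the sets did not overlap: the lowest cytosolic member, Cars (cysteine), stood at 22.0 ± 0.36 CPM per kb (SD, n = 3), and the highest mitochondrial member, Iars2 (isoleucine), at 18.8 ± 0.96. In NMuMG the lowest cytosolic member, Yars (tyrosine), at 12.9 ± 0.26 CPM per kb, lay below Iars2 at 16.1 ± 0.22. Gars (glycine) was the highest member in both lines, at 149.5 ± 7.91 CPM per kb in E0771 and 89.8 ± 0.57 in NMuMG. Vars (valine) followed at 120.3 ± 1.41 and 87.3 ± 2.82, and in NMuMG the values of Gars and Vars differed by less than the SD of Vars. At the bottom in E0771, Wars2, Nars2 and Fars2 stood at 2.22 ± 0.28, 2.24 ± 0.14 and 2.44 ± 0.21 CPM per kb, differing by no more than the largest of these SDs. The lowest member in NMuMG was Mars2 (methionine), at 2.16 ± 0.15 CPM per kb over a length of 11294 bases. Its mean CPM there was 23.5, above those of several other members, among them Pars2 (7.32), Fars2 (14.9) and Nars2 (17.5).

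**Figure D1:**
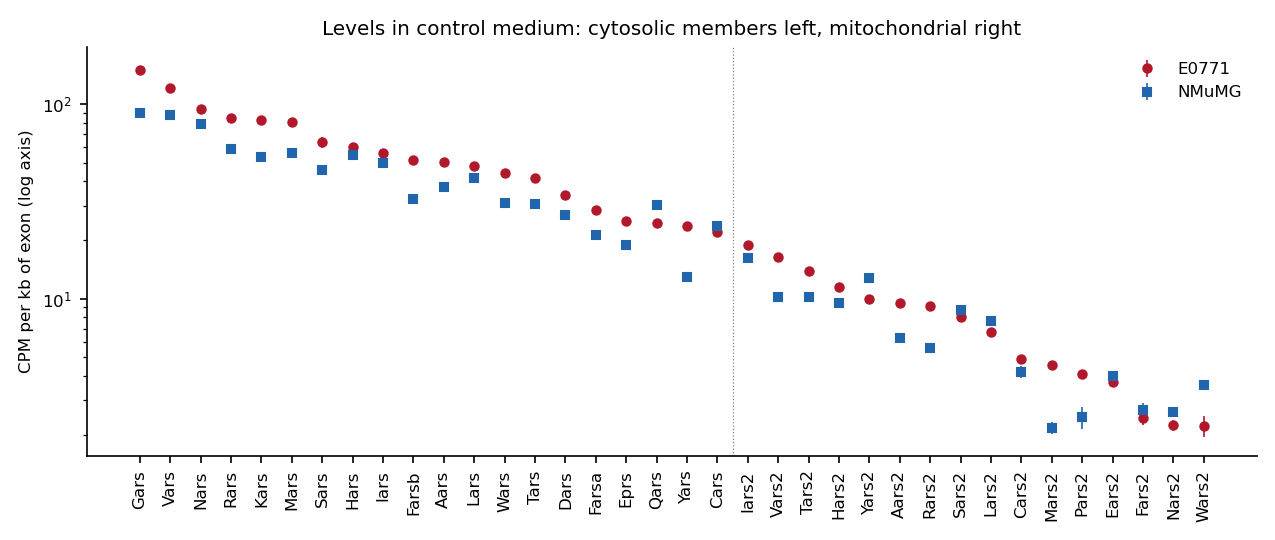
Levels of 36 of the 37 members in control medium, in CPM per kb of exon on a log axis, as mean ± SD of 3 libraries (circles E0771, squares NMuMG), ordered by E0771 level within each compartment. The cytosolic members lie between 12.9 and 149.5 CPM per kb and the mitochondrial ones between 2.16 and 18.8.

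Between the lines in control medium, most members were higher in E0771. All 20 cytosolic members passed the test, 18 of them higher in E0771 and 2, Cars and Qars (glutamine), lower. A gene is called here when its p in edgeR's quasi-likelihood test, adjusted by the Benjamini-Hochberg method over all genes tested, is under 0.05. Of the mitochondrial members 10 were higher, 3 lower and 4 not called. The call of Nars2, 1 of the lower ones, was lost without replicate 1 of either line (-0.17 without that of E0771). Over all genes tested 80.5% were called, 37.1% higher in E0771 and 43.4% lower, with a median log2 fold change of -0.077. The median was 0.44 for the cytosolic and 0.22 for the mitochondrial members. The largest cytosolic difference was that of Yars (log2 fold change 0.87 ± 0.047), with 145, 141 and 154 CPM in E0771 and 72.0, 74.8 and 73.8 in NMuMG. These CPM are scaled within each line and the fold change over all 18 libraries, so their ratio is not that fold change. Mars2 was higher in E0771 by 1.07 and Wars2 (tryptophan) lower (-0.70), the extremes among mitochondrial members. The lines differ in growth medium as well as origin, and these cannot be told apart.

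With lean secretome most synthetase mRNAs of E0771 fell and a smaller group rose. Against obese secretome 28 of 37 members were called, 7 higher and 21 lower. Over all 13813 genes tested 52.7% were called, 25.8% higher and 26.9% lower, so the members' share of higher calls (18.9%) lay below that of all genes and their share of lower calls (56.8%) above it. Among cytosolic members 4 rose and 12 fell, with a median log2 fold change of -0.16. Among mitochondrial members 3 rose and 9 fell, with a median of -0.15. The median over all genes was 0.003. Both compartments held members that rose and members that fell, and their medians lay close together, although the difference between them was not tested.

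**Figure D2:**
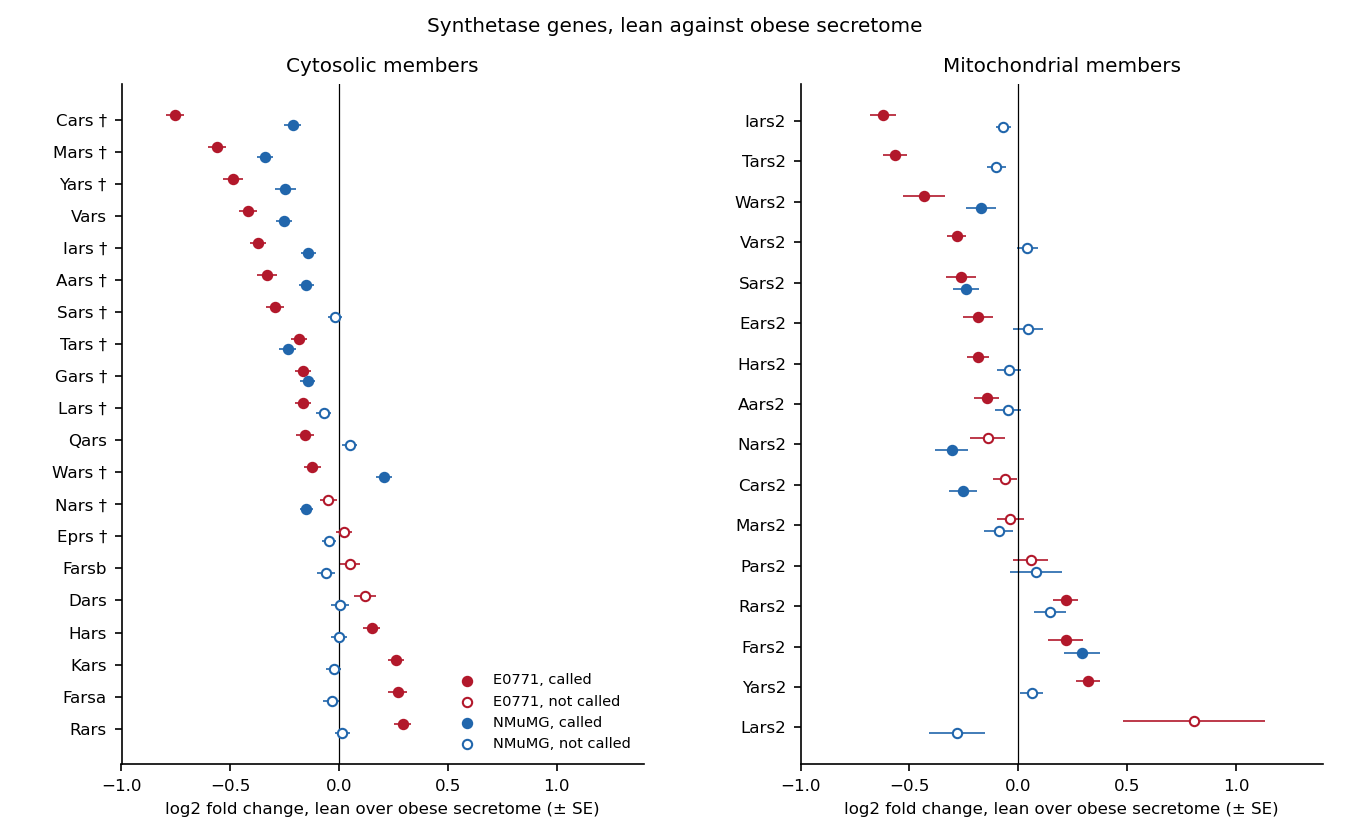
Log2 fold changes of lean over obese secretome ± SE for 36 of the 37 members, cytosolic left and mitochondrial right, ordered by the E0771 value. Filled points were called at an adjusted p under 0.05, open points were not, and a dagger marks the 12 listed ATF4 targets; in E0771 values run from -0.76 (Cars) to 0.81 (Lars2, not called), and in NMuMG from -0.34 (Mars) to 0.29 (Fars2).

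Among the cytosolic members that fell in E0771, Cars changed most. Cars stood at 149.7, 152 and 153 CPM in control medium and at 151, 149 and 151 with obese secretome. With lean secretome it stood at 86.8, 91.6 and 88.6 CPM, below every library of the other media, and fell by 40.8% against obese (log2 fold change -0.76 ± 0.040, adjusted p = 5.54e-13). Mars, which charges methionine for initiation and elongation alike, stood at 200.1, 202 and 181 CPM with lean secretome. Its obese libraries stood at 281, 295 and 285 and its control libraries at 278, 296 and 296 (log2 fold change -0.56 ± 0.043, adjusted p = 1.31e-10). The lean libraries again lay apart from the rest. Yars stood at 108, 105 and 105 CPM with lean and 142, 158 and 147 with obese secretome (log2 fold change -0.49 ± 0.046, adjusted p = 4.41e-09). Vars, the member with the highest CPM in E0771, stood at 498, 521 and 456 with lean, 653, 665 and 653 with obese secretome and 717, 695 and 711 in control medium (log2 fold change -0.42 ± 0.040, adjusted p = 5.89e-09). Lean libraries of Vars were lowest, and obese ones lay between them and control without overlap, though obese against control was not called (-0.11). Over all 13813 genes, lean and obese libraries lay apart without overlap, in either direction, for 8301, and obese and control libraries for 2927. Smaller falls were seen for Iars (-0.37), Aars (-0.33), Sars (-0.29), Tars (-0.19), Gars (-0.16), Lars (-0.16), Qars (-0.16) and Wars (-0.12) on the log2 scale (isoleucine, alanine, serine, threonine, glycine, leucine, glutamine and tryptophan).

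The cytosolic members that rose in E0771 were Rars (arginine), Farsa (the catalytic subunit for phenylalanine), Kars (lysine) and Hars (histidine). Rars stood at 273, 293 and 292 CPM in control medium, 296, 287 and 301 with obese and 367, 359 and 356 with lean secretome (log2 fold change 0.29 ± 0.038, adjusted p = 5.57e-07). Kars stood at 396, 386 and 396 CPM with obese and 474, 482 and 455 with lean secretome (log2 fold change 0.26 ± 0.036, adjusted p = 1.45e-06). For both genes every lean library was above every other library. Farsa rose by 0.27 and Hars by 0.15 on the log2 scale. Farsb, the partner subunit of Farsa in the same enzyme, was not called (log2 fold change 0.050 ± 0.046, adjusted p = 0.379). Dars (aspartate), Eprs and Nars (asparagine) were not called either, with log2 fold changes of 0.12, 0.023 and -0.050. Dars was called in 3 of 11 alternatives, among them the one without lean replicate 3, where its value was 0.20 (adjusted p = 7.54e-05).

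**Figure D3:**
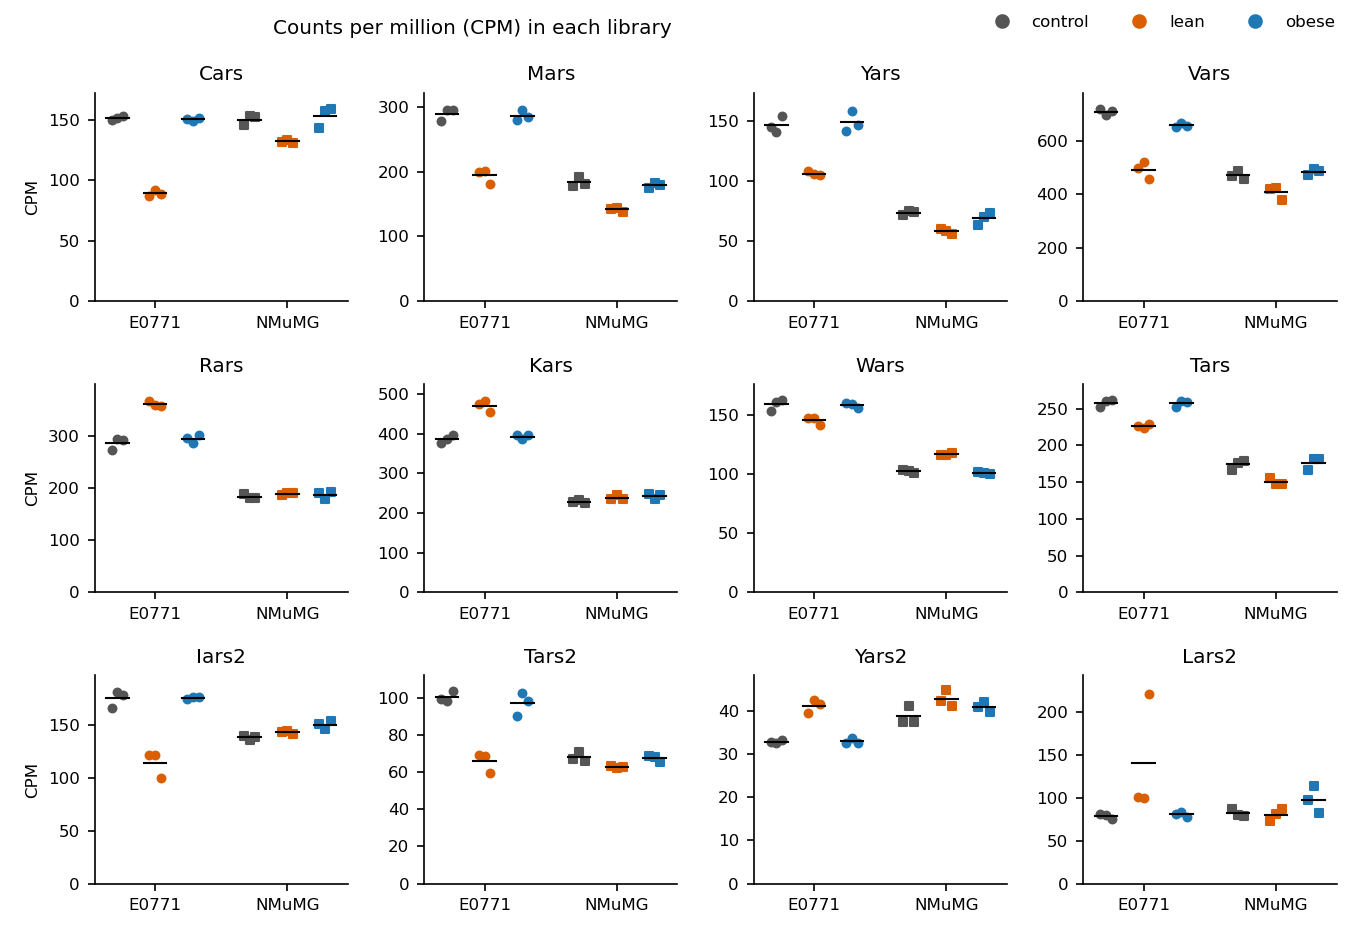
CPM of 12 members in each library (circles E0771, squares NMuMG, coloured by medium), with a bar at the mean of 3 libraries and each axis starting at 0. In E0771 the lean libraries of Cars, Mars, Yars, Vars, Iars2 and Tars2 lie below all others, those of Rars, Kars and Yars2 above, and 1 lean library of Lars2 stands at 221 CPM.

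Among the mitochondrial members called in E0771, Iars2, Tars2 and Wars2 had the largest fold changes. Iars2 stood at 166, 181 and 178 CPM in control medium, 174, 176 and 176 with obese and 121, 121 and 99.8 with lean secretome, and fell by 34.9% against obese (log2 fold change -0.62 ± 0.060, adjusted p = 2.05e-07). Every lean library lay below the others, and lean replicate 3 was lowest. Iars2 shares 2034 exonic bases with Rab3gap2 on the opposite strand, and the strand setting of the counting is not given in the sources used here, so their reads may not be separable. Rab3gap2, named because of that overlap, had a log2 fold change of -0.31 in the same comparison. Tars2 (threonine) stood at 69.1, 68.7 and 59.5 CPM with lean and 90.5, 103 and 98.6 with obese secretome (log2 fold change -0.57 ± 0.057, adjusted p = 1.63e-08). Wars2 was scarcer, at 10.9, 9.46 and 9.26 CPM with lean and 12.8, 13.7 and 13.4 with obese secretome (log2 fold change -0.43 ± 0.10, adjusted p = 5.59e-04). Both were lowest in the lean libraries. Further falls included those of Vars2 (-0.28), Sars2 (-0.26), Ears2 (-0.18), Hars2 (-0.18) and Aars2 (-0.15). The mitochondrial members that rose were Yars2, from 32.5, 33.8 and 32.7 CPM with obese to 39.6, 42.5 and 41.5 with lean secretome (log2 fold change 0.32 ± 0.056, adjusted p = 3.14e-05), Rars2 (0.22) and Fars2 (0.22). The calls of Ears2, Aars2 and Fars2 were lost in 6, 4 and 3 of 11 alternative settings. Ears2 was lost with DESeq2, with no filter and without each of 4 libraries in turn, at values of -0.17 to -0.19. Aars2 was lost with DESeq2, with the replicate block (adjusted p = 0.0503) and without lean replicate 1 (-0.10) or obese replicate 2 (-0.10). Fars2 was lost without lean replicate 3 (0.15) or obese replicate 1 (0.19) or 2 (0.20). Cars2, Mars2, Nars2 and Pars2 (proline) were not called.

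Lars2, the mitochondrial leucine enzyme, had the largest fold change of any member in E0771 and was not called. Its lean libraries stood at 101, 99.5 and 221 CPM, its obese libraries at 80.6, 83.8 and 77.4 and its control libraries at 81.0, 79.8 and 74.6 (log2 fold change 0.81 ± 0.33, adjusted p = 0.0824). Every lean library was higher than the rest, and replicate 3 was far above the other lean libraries. Without lean replicate 3 the log2 fold change was 0.32 with an adjusted p of 2.15e-06. That library also stood lowest of the lean group for Mars, Vars, Tars2, Iars2 and Dars (Dars 188, 184 and 157 CPM), among others. For Aars, Nars and Sars it stood highest. Over all but scarce genes it differed from lean replicates 1 and 2 beyond counting error by a chi-square per degree of freedom of 7.71 and 7.44. These were the highest of any replicate pair, and lean replicates 1 and 2 gave 2.22 between them. Without lean replicate 3 Dars was called as well, so 5 cytosolic members rose and 12 fell against obese secretome. Of the mitochondrial members 3 rose and 9 fell.

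Lean secretome was next compared with control medium, a comparison that shares the lean libraries with the one above. Here 28 of 37 members were called, 8 higher and 20 lower, where 56.3% of all genes were called, 27.3% higher and 29.0% lower. Cytosolic members rose in 5 cases and fell in 11, with a median of -0.16, and mitochondrial ones rose in 3 and fell in 9, also with a median of -0.16. Dars was called here (log2 fold change 0.17 ± 0.051, adjusted p = 0.00639), although its lean replicate 3, at 157 CPM, lay within the control range, and the call was lost without lean replicate 1 (0.13). Ears2 lost its call in 8 of 11 alternatives, Aars2 in 3 and Wars in 1 (without control replicate 3). Qars was not called (log2 fold change -0.071 ± 0.042, adjusted p = 0.159). Percent changes were -41.3% for Cars, -34.9% for Iars2, -34.6% for Tars2 and -33.0% for Mars. Summed over the cytosolic members, the level was 5793, 5982 and 6055 CPM in control medium, 5873, 5959 and 5910.1 with obese and 5402, 5408 and 5313 with lean secretome. The lean sums were the lowest. The mitochondrial sums were 853, 867 and 864 CPM in control medium, 828, 871 and 853 with obese and 752, 760.4 and 829 with lean secretome, the last of these being the library with high Lars2.

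The cytosolic members are described next by whether they are commonly listed as ATF4 targets. That list holds 12 of the 20 and was drawn up with earlier results of these data known, so its direction is not independent evidence, and the difference from the other members was not tested. In E0771 with lean against obese secretome, 10 of the 12 fell (26.9% of all genes did) and 0 rose, with a median of -0.24. Eprs and Nars were the 2 not called. Of the other 8 cytosolic members 4 rose and 2 fell (Vars and Qars), with a median of 0.13. In NMuMG 8 of the 12 listed targets fell (17.4% of all genes did) and 1 (Wars) rose, with a median of -0.15, while 1 of the other 8 (Vars) fell and none rose, with a median of -0.013. Vars fell in both lines although it is not on the list.

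**Figure D4:**
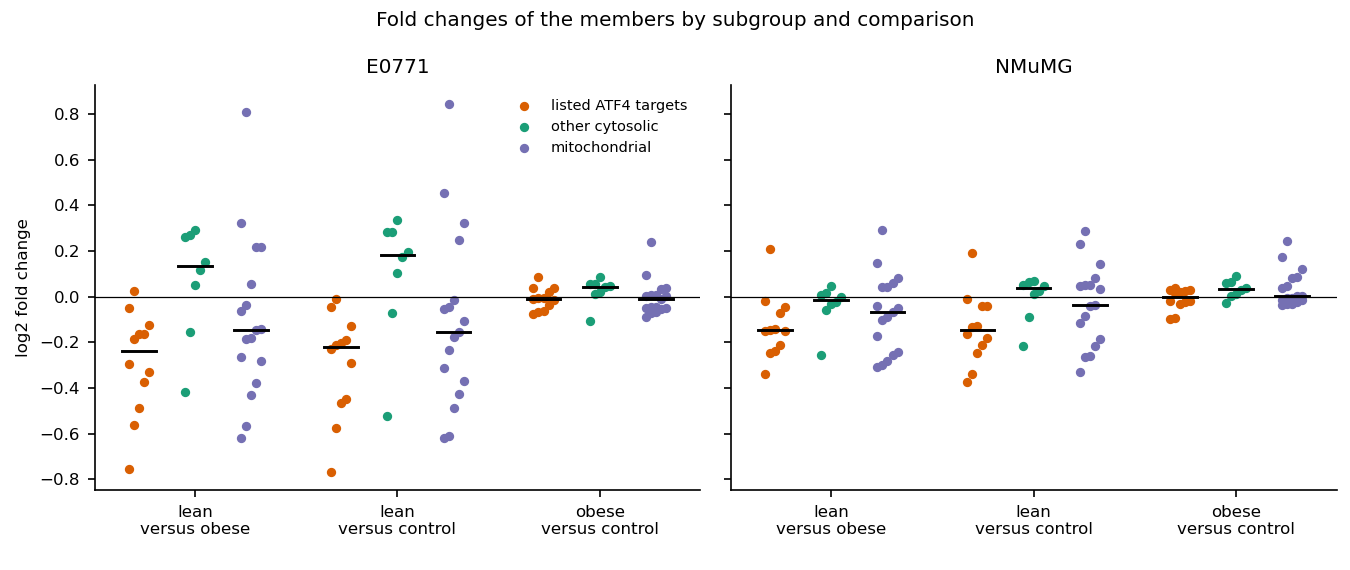
Log2 fold changes of the members in each comparison, E0771 left and NMuMG right, with 1 point per gene and a bar at the median of each subgroup (12 listed ATF4 targets, 8 other cytosolic, 17 mitochondrial). With lean against obese secretome in E0771 the medians are -0.24, 0.13 and -0.15, and in the obese against control comparison every subgroup median lies near 0.

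The promoters were read because most of the listed targets fell. ATF4 binds, with a C/EBP partner, a composite element whose core was searched as TGATGNAA on both strands, from 250 bases before to 50 after each RefSeq start site (GRCm38.p6). Promoters were at hand for 27 of the 37 members; those of Cars, Hars, Lars, Nars, Rars, Vars, Wars, Hars2 and Pars2 were among the ones not used here. The core was found in 5 of 13 cytosolic and 0 of 14 mitochondrial members, against 4.51% of 27025 genes with a promoter. All 5 (Aars, Gars, Iars, Tars and Yars) are among the 8 listed ATF4 targets with a promoter, and the 5 other cytosolic members had none. As ATF4 binds this core, a list of its targets and the core need not be independent. The windows of 4 of these genes are shown because all 5 fell with lean against obese secretome in both lines. Capitals mark the core, or its reverse complement, in the direction of the gene.
Gars (chr6:55037946-55038003, plus strand): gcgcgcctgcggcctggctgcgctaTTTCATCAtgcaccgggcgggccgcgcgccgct
Iars (chr13:49682112-49682159, plus strand): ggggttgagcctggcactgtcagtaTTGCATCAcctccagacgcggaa
Tars (chr15:11399641-11399698, minus strand): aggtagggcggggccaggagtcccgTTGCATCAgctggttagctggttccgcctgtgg
Yars (chr4:129189881-129189932, plus strand): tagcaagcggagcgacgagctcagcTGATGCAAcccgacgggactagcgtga
The core begins 112 bases before the Aars start site, which has another core after it, 30 before that of Gars and 15 before that of Tars, and lies after the start site in Iars and Yars. The 5 genes differed in size of fall. In E0771 the percent change against obese secretome was -28.7% for Yars, -22.8% for Iars, -20.5% for Aars, -12.1% for Tars and -10.8% for Gars. Eprs, Mars and Sars, listed targets with a promoter, held no such core in this window, and of these Mars had a larger fold change than any of the 5. An antioxidant response core (TGACNNNGC) was in 6 of 27 members against 14.0% of all promoters, and an E-box (CACGTG) in 5 of 27 against 8.09%. The palindromic NRF-1 site was in 0 of 27 members and 1.07% of all promoters. A match describes letters and shows no binding.

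Enzymes for the same amino acid in the 2 compartments were set side by side as 18 pairs. Eprs stood in 2 of these (with Ears2 and Pars2), as did Fars2 (with Farsa and Farsb). Singly, 52.7% of all genes were called with lean against obese secretome in E0771 and 35.0% in NMuMG. How often both genes of a pair would be called at these shares was not tested. In E0771 with lean against obese secretome both genes were called in 10 pairs. Both fell in 6 (alanine, isoleucine, serine, threonine, valine and tryptophan), and both rose in 2 (Rars with Rars2, and Farsa with Fars2). The tyrosine pair moved in opposite directions, Yars by -0.49 and Yars2 by 0.32. So did the histidine pair, Hars by 0.15 and Hars2 by -0.18, whose genes share 195 bases on opposite strands. For cysteine and methionine the cytosolic genes fell furthest of that compartment, whereas Cars2 and Mars2 had values of -0.061 and -0.037 and were not called. In NMuMG both genes were called in 3 pairs: Cars with Cars2 and Nars with Nars2 fell, and Wars rose while Wars2 fell.

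The members were also counted by enzyme class and complex, where 26.9% of all genes fell and 25.8% rose, and no difference between these groups was tested. With lean against obese secretome, 8 of the 10 cytosolic class I members fell in E0771 and 1 (Rars) rose, with a median of -0.27. Of the 11 cytosolic class II members, Eprs being counted in both classes, 4 fell and 3 rose, with a median of 0.023. The mitochondrial members of E0771 did not show this split. There 4 of 9 in class I fell and 2 rose (median -0.061), and 5 of 8 in class II fell and 1 rose (median -0.16). Of the 8 enzymes held in the multisynthetase complex 4 fell and 2 rose, with a median of -0.066. Among the 12 cytosolic members outside it 8 fell and 2 rose, with a median of -0.18. The complex scaffold, Aimp1, Aimp2 and Eef1e1 (AIMP3), moved otherwise: Eef1e1 rose by 0.69 ± 0.058 and Aimp2 by 0.22 ± 0.046, and Aimp1, at -0.022 ± 0.047, was not called. These counts are for E0771. In NMuMG 17.4% of all genes fell and 17.6% rose. There 5 of the 10 cytosolic class I members fell and 1 rose (median -0.11). Of the 11 in class II 4 fell and 0 rose (median -0.046). Of the 8 complex enzymes 2 fell and 0 rose, and 0 of the 3 scaffold genes were called.

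NMuMG was given the same secretomes. With lean against obese secretome 16 of 37 were called, 2 higher and 14 lower, where 35.0% of all 15014 genes were called, 17.6% higher and 17.4% lower. Cytosolic members rose in 1 case and fell in 9 (median -0.065), and mitochondrial members rose in 1 and fell in 5 (median -0.069). Mars fell most. It stood at 143, 144 and 138 CPM with lean, 175, 183 and 179.8 with obese secretome and 178, 192 and 182 in control medium, with the lean libraries lowest (log2 fold change -0.34 ± 0.036, adjusted p = 2.88e-09). Vars stood at 418, 422 and 378 CPM with lean and 472, 494 and 486 with obese secretome (log2 fold change -0.25 ± 0.037, adjusted p = 1.33e-06). Yars stood at 59.9, 58.3 and 55.9 CPM with lean and 63.6, 69.9 and 73.2 with obese secretome (log2 fold change -0.25 ± 0.048, adjusted p = 9.70e-05). Tars, for threonine, stood at 155, 147 and 148 and 167, 182 and 181 CPM (log2 fold change -0.24 ± 0.039, adjusted p = 7.84e-06). The lean and obese libraries of these genes did not overlap, the lean ones being lower, as was so for 3374 of all 15014 genes. Cars (-0.21), Aars (-0.15), Nars (-0.15), Gars (-0.15) and Iars (-0.14) were the smaller cytosolic falls on the log2 scale.

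Wars, the cytosolic tryptophan enzyme, was the 1 cytosolic member that rose in NMuMG. It stood at 117, 116 and 118 CPM with lean secretome, above 102, 101 and 100.3 with obese secretome and 103, 103 and 101 in control medium (log2 fold change 0.21 ± 0.037, adjusted p = 2.57e-05). In E0771 the same gene fell slightly, from 161, 159.6 and 157 CPM with obese to 148, 148 and 142 with lean secretome (log2 fold change -0.12 ± 0.039, adjusted p = 0.0106). Wars is known as an interferon-induced synthetase.

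Among the mitochondrial members of NMuMG, Nars2 stood at 15.2, 15.1 and 13.6 CPM with lean and 17.0, 17.3 and 20.0 with obese secretome (log2 fold change -0.31 ± 0.078, adjusted p = 0.00202). Every lean library of Nars2 lay below every obese library. Fars2 rose, with 18.2, 17.6 and 18.6 CPM under lean and 16.2, 15.4 and 12.8 under obese secretome (log2 fold change 0.29 ± 0.083, adjusted p = 0.0051). Cars2 fell by 0.25 and Sars2 by 0.24 on the log2 scale, and Wars2 (-0.17) was called at an adjusted p of 0.0472 that rose above 0.05 in all 11 alternatives. The Fars2 call was lost without obese replicate 3 (0.20, adjusted p = 0.0832). Against control medium 19 members were called, 4 higher (Wars, Fars2, Rars2 and Yars2) and 15 lower, where 38.2% of all genes were called, 19.1% in each direction. Of these calls Cars2, Rars2, Tars2, Wars2 and Yars2 were lost without 1 or more single libraries. Summed over cytosolic members the level was 4120.0, 4164 and 4105 CPM in control medium, 4088, 4185 and 4202 with obese and 3856, 3918 and 3809 with lean secretome. The lean sums were again lowest. The mitochondrial sums were 666, 663 and 648 CPM in control medium, 699, 704 and 670 with obese and 640, 651 and 648 with lean secretome. Here the lean and control sums overlapped. With lean secretome against control medium the median log2 fold change was -0.065 for cytosolic and -0.037 for mitochondrial members.

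Across lines, 13 members were called for lean against obese secretome in both, 46.4% of those called in E0771 and 81.2% of those called in NMuMG. Over the 12433 genes tested in both lines these shares were 41.8% and 63.9%. Of the 13 members 11 fell in both lines, among them Aars, Cars, Gars, Iars, Mars, Tars, Vars, Yars, Sars2 and Wars2. Fars2 rose in both, and Wars moved in opposite directions. The NMuMG call of Wars2 was lost in every alternative, and the Fars2 call was lost without single libraries in each line. Of the 2834 genes called in both lines, 1010 fell in both and 805 rose in both. A further 522 fell in E0771 and rose in NMuMG, and 497 did the reverse. The difference between lines was tested as an interaction over all 18 libraries. It was called for 18 members, 6 higher and 12 lower in E0771 than in NMuMG, where 34.2% of 16529 genes were called, 18.8% higher and 15.5% lower. By compartment these were 13 of 20 cytosolic and 5 of 17 mitochondrial members. The median absolute interaction was nonetheless alike, at 0.177 for cytosolic and 0.183 for mitochondrial members. The mitochondrial members were scarcer, and the part of this in the counts was not tested. The smallest p-values were those of Cars, Iars2 and Tars2. In NMuMG Cars stood at 132, 134 and 131 CPM with lean and 143, 158 and 159 with obese secretome, a fall smaller than in E0771 (interaction -0.53 ± 0.056, adjusted p = 8.49e-10). Iars2 stood in NMuMG at 143, 144 and 142 CPM with lean and 150.2, 146 and 154 with obese secretome (interaction -0.54 ± 0.069, adjusted p = 1.24e-07). Tars2 stood at 63.5, 62.3 and 62.8 and 68.8, 68.0 and 65.5 CPM (interaction -0.45 ± 0.072, adjusted p = 2.92e-06). Rab3gap2, which overlaps Iars2 on the opposite strand, had an interaction of -0.36 ± 0.059. Its reads and those of Iars2 may not be separable. Of the members that rose in E0771, Rars, Kars, Farsa, Hars and Yars2 had more positive values there than in NMuMG, with interactions of 0.29, 0.30, 0.32, 0.17 and 0.28. The interaction of lean against control medium, which shares the lean libraries, was called for 17 members where 34.5% of all genes were. That of obese against control was called for 0 of 37 by edgeR's quasi-likelihood test and 0 by DESeq2, with 5 at an unadjusted p under 0.05, where 1.69% of all genes were called.

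**Figure D5:**
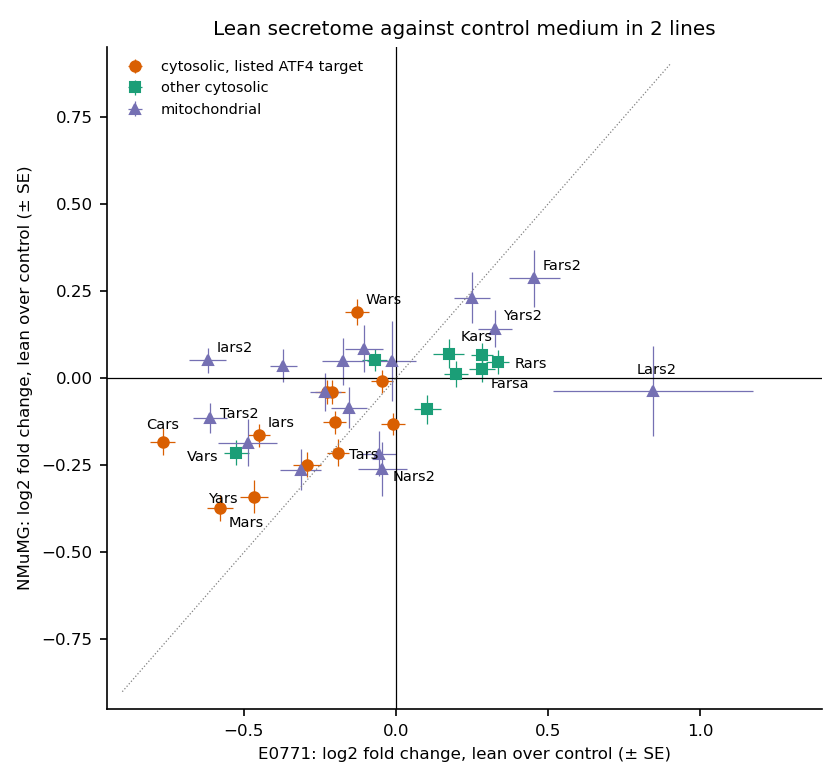
Log2 fold change of lean secretome over control medium ± SE in E0771 (horizontal) and NMuMG (vertical) for 36 of the 37 members, by subgroup, with a dotted line where both are equal. Iars2 lies at -0.62 in E0771 and 0.051 in NMuMG, Rars at 0.33 and 0.046, and Wars at -0.13 and 0.19.

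Between obese secretome and control medium few members were called. In E0771 edgeR's quasi-likelihood test called 0 of 37 members and DESeq2 also 0, with 3 at an unadjusted p under 0.05, where 2.61% of all genes were called. Values ran from -0.11 (Vars) to 0.24 (Fars2). In NMuMG 1 member was called, where 5.01% of all genes were: Iars2 stood at 139.6, 136 and 139 CPM in control medium and 150.2, 146 and 154 with obese secretome (log2 fold change 0.12 ± 0.035, adjusted p = 0.0406). This call was lost in 6 of 11 alternatives. The lean libraries of Iars2 in NMuMG lay between the 2 groups. The median SE of a member's log2 fold change was 0.046 in E0771 and 0.041 in NMuMG, which sets the size of change these libraries could show.

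Other genes of the pathway were taken from lists. Their counts stand beside 52.7% of all genes called in E0771 and 35.0% in NMuMG with lean against obese secretome. Among 10 regulators and sensors of amino acid stress, 8 were called in E0771, 3 higher and 5 lower. Atf4 itself stood at 429.9, 442 and 434 CPM with obese and 266, 259.7 and 278 with lean secretome, with no overlap (-0.70 ± 0.037). Its targets Chac1 (glutathione cleavage), Sesn2 (a leucine sensor), Trib3 (a pseudokinase) and Asns (asparagine synthetase) fell by 1.31, 0.96, 0.62 and 0.35 on the log2 scale. Ppp1r15a, the eIF2α phosphatase subunit, Myc and Eif2ak4 (GCN2) rose, by 0.62, 0.24 and 0.20. In NMuMG 7 were called, 5 higher and 2 lower. Atf4 fell there too, from 194, 203 and 211 CPM with obese to 167, 167 and 169 with lean secretome, and Asns fell by 0.17. Trib3, Ddit3 and Sesn2, however, rose by 0.56, 0.45 and 0.25. Trib3 and Sesn2, named above as Atf4 targets, had fallen in E0771, where Ddit3 was not called. The median log2 fold change of the 10 genes was 0.21 in NMuMG and -0.19 in E0771. Of the members on the ATF4 list 10 had fallen in E0771 and 8 in NMuMG, so in NMuMG Trib3, Ddit3 and Sesn2 moved the other way.

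Of 14 mitochondrial translation factors and tRNA-modifying genes, 3 rose and 3 fell in E0771, 42.9% called and so below the share of all genes, with a median of -0.021. Trnt1, which adds the CCA end to tRNAs, rose by 0.42, and Mto1, a mitochondrial tRNA modifier, fell by 0.32. In NMuMG 1 rose and 0 fell. Of 11 cytosolic translation factors 3 rose and 5 fell in E0771, among them Eef1a1 (-0.30), which carries charged tRNA to the ribosome, and Eef2 (-0.33). In NMuMG 1 rose and 7 fell. Among 8 relatives of the synthetases, including the amidotransferase that makes mitochondrial glutaminyl-tRNA, 3 rose and 3 fell in E0771: its subunit Gatb fell by 0.53 and Gatc rose by 0.34, and Aarsd1, an editing relative of Aars, fell by 0.75. In NMuMG edgeR's quasi-likelihood test called 0 of these 8, with 0 at an unadjusted p under 0.05.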

How the data were processed

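Poly(A) RNA was sequenced as paired reads from directional libraries, per the labels' protocols. The authors deposited raw counts per Ensembl gene ID, made with cutadapt 1.16, STAR 2.7.9a and featureCounts 1.6.3 on GRCm39, per the submitters' processing notes; the strand setting and annotation release are not given in the sources used here. Symbols and exon lengths came from GENCODE M21 (GRCm38), with older spellings (Aars, Cars). Promoters are RefSeq, GRCm38.p6.

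Each line's 9 libraries were fitted together in edgeR 4.0.16 (robust quasi-likelihood test, TMM scaling, filterByExpr), and all 18 for interactions and the line comparison. P-values were adjusted by Benjamini-Hochberg over all genes tested. CPM are scaled by TMM within each line. Alternatives were DESeq2 1.42.0, its size factors in edgeR, no filter, a replicate block, the 2 compared groups alone and each replicate left out. The fit was tested on simulated data, where it recovered most changed genes and the share of false calls came out above the adjusted p threshold, more so for NMuMG. Few genes were changed there, and by more than most members changed here, so recovery of smaller changes was not tested. Shared exonic sequence was sought with BLAST 2.17.0 (at least 100 bases at 98% identity). Counts are of reads without molecular identifiers.

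The members and lists were chosen with earlier results of these data known. Values per library are given for the 4 cytosolic and 3 mitochondrial members with the largest change in each line, the 3 smallest interaction p-values, members called for obese against control and the most abundant members; a few others (Rars, Kars, Wars, Lars2, Yars2 and Dars in E0771) were added after their values were seen. The values of 1 mitochondrial member are not reported here, though it stays in the counts and medians. The human SkBr3 libraries were not analysed here.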

Additional observations from a re-analysis of the deposited data

Results flagged for a closer look

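The effect of lean secretome differed between E0771 and NMuMG for 18 members against obese secretome and 17 against control medium, by the interaction in edgeR's quasi-likelihood test over 18 libraries. Over all 16529 genes tested 34.2% and 34.5% were called in these interactions. Values are log2 differences, E0771 minus NMuMG. Against obese secretome the members more negative in E0771 were Cars (-0.53), Iars2 (-0.54), Tars2 (-0.45), Wars (-0.32), Vars2 (-0.31), Sars (-0.26), Iars (-0.21), Mars (-0.21), Qars (-0.19), Yars (-0.23), Aars (-0.16) and Vars (-0.15). Those more positive in E0771 were Kars (0.30), Farsa (0.32), Rars (0.29), Yars2 (0.28), Hars (0.17) and Lars2 (1.11). Rab3gap2, whose reads may not be separable from those of Iars2, had values of -0.36 against obese secretome and -0.19 against control medium. The value of Lars2 was 0.62 without lean replicate 3 of E0771, and its call was lost in 9 of 16 alternatives. The calls of Aars, Hars, Vars and Yars were also lost without 1 or more single libraries, among them Vars without lean replicate 3 of E0771 (-0.093) and Yars without obese replicate 1 of NMuMG (-0.17).

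Against control medium, which shares the lean libraries, the members more negative in E0771 were Cars (-0.56), Iars2 (-0.64), Tars2 (-0.47), Vars2 (-0.38), Wars (-0.29), Iars (-0.26), Vars (-0.28), Lars (-0.16), Mars (-0.18) and Sars (-0.14). Those more positive were Rars (0.31), Kars (0.24), Farsa (0.28), Hars (0.21), Farsb (0.22), Nars (0.15) and Yars2 (0.21). The calls of Mars, Nars, Sars and Yars2 were lost without 1 or more single libraries, among them Mars at -0.13 without lean replicate 3 of E0771 and Sars, lost without each of 8 libraries in turn, at -0.092 without control replicate 3 of E0771. Without lean replicate 3 of E0771 Dars was called too (0.21 in both comparisons), and Lars2 against control medium, at 0.91 with all libraries and not called, stood at 0.42 (adjusted p = 0.0499). The part of the growth media, which differed between the lines, was not tested.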

How the results depend on the processing

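No member's fold change changed direction past the threshold in any alternative run. In E0771, 25 of 28 members called for lean against obese secretome kept the call in all 11 alternatives, and in NMuMG 14 of 16. Against control medium 24 of 28 in E0771 and 14 of 19 in NMuMG did so. The 1 member called for obese against control in NMuMG became 0 with the replicate block, and 0 to 1 when each replicate was left out, being lost without each control replicate in turn and without obese replicate 1 or 3. Same-numbered replicates did not deviate together (correlations of -0.094 to 0.11 in E0771 and -0.028 to 0.025 in NMuMG). The block lost 1 other call in each of lean against obese in E0771 (Aars2), in NMuMG (Wars2) and in the interaction (Lars2). Leaving out each replicate in turn moved medians by more than the spread between libraries in these cases: in E0771 lean against obese, -0.17 to -0.13 for cytosolic and -0.19 to -0.14 for mitochondrial members, in E0771 lean against control, -0.18 to -0.13 for cytosolic members, and in E0771 obese against control, 0.00062 to 0.053 for cytosolic and -0.041 to 0.0089 for mitochondrial members. In NMuMG the mitochondrial median ranged from -0.076 to 0.023 for lean against control and from -0.011 to 0.033 for obese against control. The cause was not tested. Depth limits scarce members such as Pars2 and Wars2 most.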
